A study of Mus musculus with 14 samples.

Results

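The regions described here are 294 autosomal H3K27me3 peaks of mouse PDGF neural stem cells that were called in both libraries of cells with wild-type histone H3.3 and in neither library of cells with K27M histone H3.3. They were selected on the 4 DMSO H3K27me3 peak lists alone: a member is a peak of at least 3 kb and under 10 kb in H3WT replicate 1 that overlaps a peak of H3WT replicate 2 and no peak of K27M replicate 1 or 2. Of the 13358 peaks of H3WT replicate 1, 11053 were autosomal, 2727 of these had such a width, and 2725 of those overlapped H3WT replicate 2. The 294 members made up 10.8% of these 2725 peaks, a share that the selection itself fixes and that carries no test.

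The study had 4 groups with 2 H3K27me3 libraries each: K27M cells in DMSO, H3WT cells in DMSO, K27M cells in EPZ6438 (EPZ), and H3WT cells in EPZ. All cells bore the label PDGF Neural Stem Cells, and the series' design text calls them mouse DIPG cells, where DIPG stands for diffuse intrinsic pontine glioma, a tumour of the brainstem in children in which H3 K27M is common. Cells received the Ezh2 inhibitor EPZ6438 at 3 µM, or the solvent DMSO, for 12 days. For Ring1b and Suz12 each genotype had 1 library, from cells in DMSO, so that peak lists of 12 of the 14 libraries were used, and the IgG libraries were not analysed here. How the H3.3 transgenes were driven, and whether a genotype is 1 clone, is not given in the sources used here, and nothing says that replicates came from separate cultures.

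H3K27me3 is trimethylation of lysine 27 of histone H3. It is deposited by Polycomb repressive complex 2 (PRC2), which holds Ezh2 as catalytic subunit and Suz12 as a core subunit, and it marks genes that are kept silent, among them many regulators of development. Ring1b is the ubiquitin ligase of Polycomb repressive complex 1, part of which binds H3K27me3, and PRC2 in mammals is recruited in large part to CpG islands. In K27M histone a methionine takes the place of the lysine, PRC2 activity is inhibited, and H3K27me3 is known to fall over much of the genome while some sites keep it.

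The deposited lists differed widely in size. H3K27me3 in DMSO had 2351 and 17980 peaks in K27M replicates 1 and 2, against 13358 and 59899 peaks in H3WT replicates 1 and 2, and the read depth behind them is unknown. The larger list was replicate 2 in both genotypes. Absence from a list therefore means that no peak was called, and the mark itself was not measured there. Every member was decided by K27M replicate 2: without that library 1737 peaks would qualify, and without K27M replicate 1 the same number of 294, because no peak of this width class overlapped K27M replicate 1 only. Among the 2725 peaks, 988 overlapped a peak in both K27M libraries (called kept here) and 1443 overlapped K27M replicate 2 only.

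Promoters that lie wholly inside a member show what kinds of sequence these peaks cover. The 4 below come from the RefSeq promoter table of the build GRCm38.p6, whose chromosomes are those of mm10, and run 5′ to 3′ on the gene's strand from 250 bases before to 50 bases after a transcription start of the table, which for Hs3st4, Cdh8 and Cr2 is not the outermost bound of the gene, with CG dinucleotides in capitals. They were picked to span the range of CpG content among the genes at the widest members, and because the first and the third had a Polycomb factor peak in their member. Hs3st4 encodes a heparan sulfate sulfotransferase (chr7:123982578-123982877, plus strand), Cdh8 a classical cadherin of neurons (chr8:99416422-99416721, minus strand), Cr2 the complement receptor of B cells (chr1:195176670-195176969, minus strand) and Olfr1370 an odorant receptor (chr13:21073250-21073549, minus strand).
Hs3st4: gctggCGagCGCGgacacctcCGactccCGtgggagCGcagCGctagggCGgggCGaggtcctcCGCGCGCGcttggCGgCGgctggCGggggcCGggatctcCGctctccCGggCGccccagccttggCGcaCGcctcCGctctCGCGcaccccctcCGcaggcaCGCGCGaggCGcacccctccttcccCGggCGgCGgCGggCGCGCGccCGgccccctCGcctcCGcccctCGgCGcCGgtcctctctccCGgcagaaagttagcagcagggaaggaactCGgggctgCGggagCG
Cdh8: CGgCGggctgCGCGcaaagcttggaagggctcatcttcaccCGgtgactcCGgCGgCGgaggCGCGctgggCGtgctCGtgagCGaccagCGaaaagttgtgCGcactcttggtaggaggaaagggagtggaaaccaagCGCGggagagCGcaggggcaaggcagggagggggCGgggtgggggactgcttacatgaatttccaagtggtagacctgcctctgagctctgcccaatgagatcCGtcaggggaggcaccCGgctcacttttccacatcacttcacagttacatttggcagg
Cr2: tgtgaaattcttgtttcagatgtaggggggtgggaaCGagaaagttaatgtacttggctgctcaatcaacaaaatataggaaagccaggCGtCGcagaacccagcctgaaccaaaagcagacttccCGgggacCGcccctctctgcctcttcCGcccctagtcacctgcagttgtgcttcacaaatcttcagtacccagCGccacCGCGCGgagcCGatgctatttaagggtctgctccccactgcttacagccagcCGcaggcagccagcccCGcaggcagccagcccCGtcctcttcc
Olfr1370: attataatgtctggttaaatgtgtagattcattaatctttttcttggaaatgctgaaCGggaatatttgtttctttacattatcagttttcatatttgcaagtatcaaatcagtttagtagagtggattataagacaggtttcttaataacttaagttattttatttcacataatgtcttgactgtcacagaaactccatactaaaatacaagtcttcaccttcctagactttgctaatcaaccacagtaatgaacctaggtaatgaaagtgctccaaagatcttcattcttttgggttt
The Hs3st4 promoter held 47 CG dinucleotides with a CpG observed/expected ratio (the number of CG over the number that its C and G content would give) of 1.00. The Cdh8 promoter held 21 CG with a ratio of 0.75, the Cr2 promoter 14 CG with a ratio of 0.58, and the Olfr1370 promoter 1 CG with a ratio of 0.14.

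Across all members, 45 promoters of 39 genes were overlapped, and their CpG content was widely spread. The median observed/expected ratio was 0.55 with quartiles of 0.28 and 0.71, against a median of 0.70 for the 391 promoters under kept peaks and 0.57 for all 21045 promoters of the table. A ratio of at least 0.6 was found in 19 of 45 members' promoters (42.2%, exact 95% interval 27.7 to 57.9), 252 of 391 promoters under kept peaks (64.5%, 59.5 to 69.2) and 48.1% of all promoters. The members' promoters thus lay near the level of all promoters of the table, while those under kept peaks lay above it. Promoters under peaks that overlapped K27M replicate 2 only stood between, with a median of 0.60. No test between these sets was run, and the intervals cover the counting of promoters or peaks only. The promoter table holds promoters of 17274 of the 21631 protein-coding genes, and none for chromosome 18, which carries 5 members. Promoters of other genes are left out, among them that of Msc, a gene that lies wholly inside a member.

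**Figure D1:**
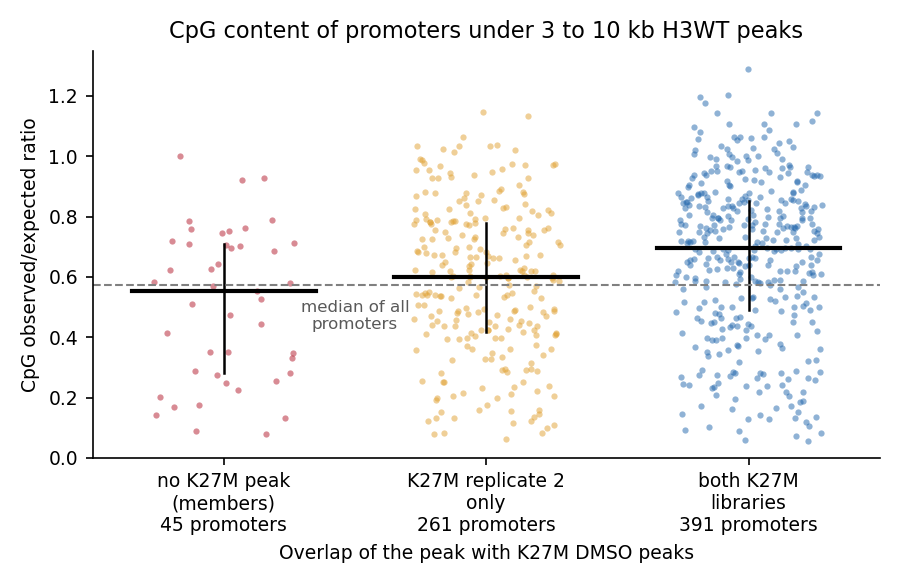
CpG observed/expected ratio of each promoter (points) overlapped by a 3 to 10 kb H3WT H3K27me3 peak, for members, for peaks overlapping K27M replicate 2 only and for kept peaks; the thick line is the median, the thin line spans the quartiles and the dashed line is the median of all promoters. The members' median of 0.55 sits just under the 0.57 of all promoters, and that of kept peaks is 0.70.

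Short motifs, none of which contains another, were counted in the same promoters on both strands. CACGTG, the E-box core, was found in 7 of 45 members' promoters (15.6%), in 9.47% of promoters under all peaks of the width class and in 7.91% of all promoters. GCGGGA, an E2F-type core, was found in 16 of 45 (35.6%), 37.6% of those of the width class and 26.0% of all. TATAAA was found in 4 of 45 (8.89%), 9.04% of those of the width class and 12.7% of all. Several of these promoters belong to 1 gene and overlap each other, as those of Begain do, so that they are not independent.

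Members were narrow within the width class. Their median width was 3.74 kb with quartiles of 3.31 and 4.56 kb and a range of 3.00 to 9.44 kb. The median was 5.73 kb for kept peaks and 4.265 kb for peaks overlapping K27M replicate 2 only, which stood between. Widths under 4 kb were found for 175 of 294 members (59.5%) and 164 of 988 kept peaks (16.6%). Of the peaks overlapping K27M replicate 2 only, 612 of 1443 (42.4%) had such a width. The 3 members just inside the lower bound were 3000, 3001 and 3008 bp wide, and the 3 lost peaks just outside it were 2980, 2984 and 2993 bp wide. The 3 widest members measured 8737, 8941 and 9440 bp, and the 3 narrowest lost peaks above the upper bound 10947, 11279 and 11480 bp. Lost peaks under 3 kb numbered 3989 and those of at least 10 kb numbered 4, so that the members are the wide tail of the lost peaks.

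**Figure D2:**
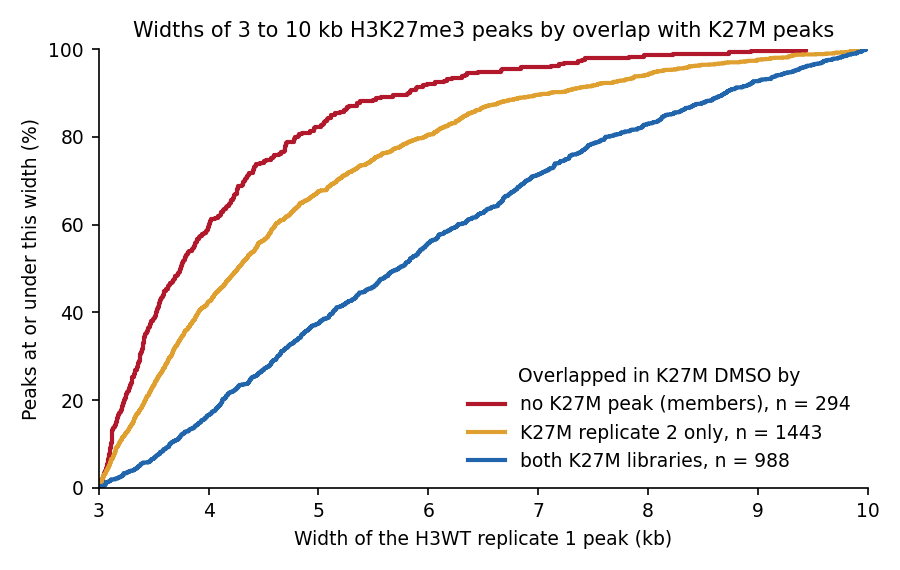
Cumulative share of peaks (%) by the width of the H3WT replicate 1 peak (kb) for members, for peaks overlapping K27M replicate 2 only and for kept peaks. The members' curve rises first: 59.5% of members, 42.4% of peaks overlapping K27M replicate 2 only and 16.6% of kept peaks are narrower than 4 kb.

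In H3WT replicate 2, members lay under narrower peaks than kept peaks did. The widest H3WT replicate 2 peak at a member had a median width of 8.78 kb and ranged from 1.28 to 234.6 kb, and it measured at least 10 kb at 125 of 294 members (42.5%), against 56.0% of the whole width class and 60.5% of kept peaks. Of the members, 240 (81.6%) lay wholly under replicate 2 peaks, against 933 of 988 kept peaks (94.4%). Another H3WT replicate 1 peak lay within 1 kb of 98 members (33.3%) and within 10 kb of 203 (69.05%), shares near the 37.7% and 70.2% of the whole width class. A K27M peak was often not far away either: K27M replicate 1 had one within 10 kb of 22 members (7.48%) and K27M replicate 2 within 10 kb of 94 (32.0%), and the other 200 members had none from either library. Over a member with 50 kb on each side, the median share under peaks was 0% and 2.43% in K27M replicates 1 and 2. In H3WT replicates 1 and 2 it was 14% and 36.3%. The corresponding medians for kept peaks were 4.63% and 15.2% in the K27M libraries and 12.3% and 29.5% in the H3WT libraries. These windows hold the peak itself, so that the selection fixes part of each share.

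Members lay mostly away from gene ends. A protein-coding gene start or end lay within 1 kb of 56 of 294 members (19.05%, exact 95% interval 14.7 to 24.0), while 35.4% of all 2725 peaks of the width class and 530 of 988 kept peaks (53.6%, 50.5 to 56.8) had one. A further 98 members (33.3%) lay inside a gene with no end nearby, against 23.4% of the width class and 191 kept peaks (19.3%). Between genes lay 140 members (47.6%), against 41.2% of the width class, 49.5% of peaks overlapping K27M replicate 2 only and 267 kept peaks (27.02%). No gene lay within 50 kb of 74 members (25.2%), 17.0% of the width class and 111 kept peaks (11.2%). The difference in gene ends was also seen at like widths: among peaks of 3 to 4 kb, a stratum chosen after the data were seen, 33 of 175 members (18.9%) and 79 of 164 kept peaks (48.2%) had one. Peaks that overlapped K27M replicate 2 only had a gene end at 26.8% in that stratum. Exons, introns and untranslated regions were not resolved here, because the gene table gives only gene bounds.

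**Figure D3:**
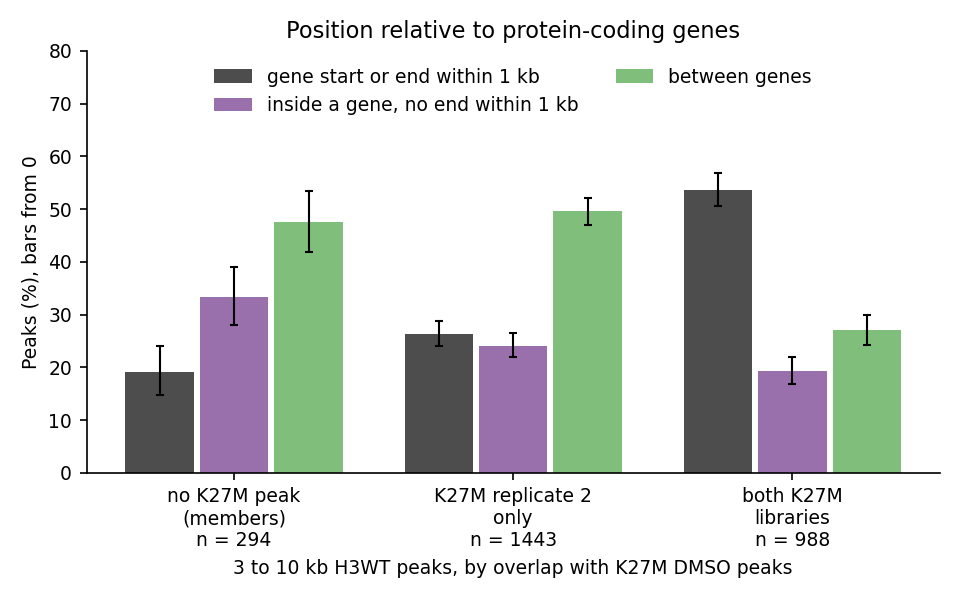
Share of peaks (%) with a protein-coding gene start or end within 1 kb, inside a gene without one, and between genes, for members, for peaks overlapping K27M replicate 2 only and for kept peaks; error bars are exact 95% intervals over peaks. The gene-end bar of the members stands at 19.05% and that of kept peaks at 53.6%.

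The members had an end of 58 protein-coding genes within reach, and few of these were on lists of developmental regulators. An end can be the start or the end of a gene, and these were not told apart. Of 23 gene lists with 4202 matched entries, 11 lists had a gene with an end at a member, 17 genes in all. No member lay at an end of any of 39 Hox genes, which pattern the body axis, 112 further homeobox or paired-box genes, 61 genes for factors of mesoderm and endoderm, 153 potassium, sodium and calcium channel genes, 106 neurotransmitter receptor genes or 40 neural stem and glial progenitor genes. The channel list does not hold Scnn1b, which encodes an epithelial sodium channel subunit and was noticed after the values were seen: a member overlapped its promoter. Kept peaks of the same width lay at ends of 12 of the other homeobox genes, 7 of the mesoderm and endoderm factors, 17 of the channel genes and 19 of the neurotransmitter receptor genes, and at none of the Hox or neural stem genes. Over all genes, 58 of 21631 had an end at a member and 586 at a kept peak, so that counts this small do not set any list apart.

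Of 67 listed neuronal differentiation and synapse genes, 1 had an end at a member, and of 175 listed axon guidance and adhesion genes also 1. The widest member at a gene of the 23 lists other than the odorant receptors covered the Cdh8 promoter shown above (chr8:99412177-99419022, 6.85 kb wide). With 10 kb added on each side, K27M replicates 1 and 2 had no H3K27me3 peak there, against 6.85 and 9.19 kb under peaks in H3WT replicates 1 and 2. Both K27M libraries were thus at 0 and the H3WT peaks filled little more than the member itself. The H3K27me3 lengths given below for other single members also count the member with 10 kb on each side. The member's own part of them is fixed by the selection. At Calb2, the gene of the neuronal calcium buffer calretinin, the member was 3.301 kb wide, with no K27M peak within 10 kb in either replicate and 4.44 and 9.47 kb under peaks in H3WT replicates 1 and 2. Ntf3, which encodes the growth factor neurotrophin-3, had a 6.06 kb member (chr6:126161624-126167687), again with 0 kb in both K27M replicates, against 6.06 and 6.96 kb in H3WT replicates 1 and 2. These 3 members stood alone, with no K27M peak within 10 kb.

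Receptors of neuropeptides made up a small cluster on chromosome 8. The adjacent genes Npy5r and Npy1r, which encode receptors of neuropeptide Y, each had a member at an end, 4.21 kb wide (chr8:66686774-66690981) and 4.12 kb wide (chr8:66694968-66699082). With 10 kb flanks both members had no K27M peak, against 8.32 and 14.4 kb under peaks in H3WT replicates 1 and 2. Cckbr, which encodes a receptor of the peptide cholecystokinin, had a 5.38 kb member (chr7:105423388-105428768) with 0 kb in both K27M replicates and 5.38 and 7.60 kb in H3WT replicates 1 and 2. The third gene of the G protein-coupled receptor list was Gpr139, an orphan receptor of the brain, with a member of 3.18 kb. That list had 15 genes with an end at a kept peak.

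Genes of tissues other than brain were also covered. Krt19 and Krt7, keratins of simple epithelia, had members of 3.99 kb (chr11:100143497-100147486) and 3.77 kb (chr15:101411989-101415760). At Krt19 the member with its 10 kb flanks held no K27M peak, against 3.99 and 4.17 kb in H3WT replicates 1 and 2, and at Krt7 it held none, against 4.97 and 9.41 kb. Cd3e, a chain of the T-cell receptor complex, had a 4.26 kb member (chr9:45005652-45009906). This member with its 10 kb flanks held 0 and 1.00 kb in K27M replicates 1 and 2. In H3WT replicates 1 and 2 it held 7.65 and 14.8 kb, the member included. Here a K27M replicate 2 peak lay beside the member. Jaml, which encodes an adhesion molecule of leukocytes, had a 3.12 kb member with no K27M peak nearby. Cr2 had a 6.67 kb member (chr1:195172599-195179272). This member with its 10 kb flanks held 0 and 1.42 kb in K27M replicates 1 and 2. In H3WT replicates 1 and 2 it held 20.5 and 26.6 kb, and was therefore part of a longer H3WT domain. Msc, which encodes the basic helix-loop-helix repressor musculin, had a 6.31 kb member (chr1:14752393-14758699) with no K27M peak, against 7.90 and 19.8 kb.

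Matrix, signalling and transport genes each contributed 1 or 2. Adamts18 and Adamts13, secreted metalloproteases of which Adamts13 cleaves von Willebrand factor, had members of 3.06 and 3.00 kb, close to the lower bound. Rspo1, which encodes the secreted enhancer of Wnt signalling R-spondin 1, had a 4.11 kb member (chr4:125006866-125010976). This member with its 10 kb flanks held 0 and 1.44 kb in K27M replicates 1 and 2. In H3WT replicates 1 and 2 it held 11.9 and 20.03 kb. Slc4a8, a bicarbonate transporter gene, had a 3.41 kb member. The Fxyd5 and Fxyd7 pair, regulators of the sodium pump, had a 5.57 kb member (chr7:31040308-31045875). This member with its 10 kb flanks held 3.78 and 5.17 kb in K27M replicates 1 and 2, all of it in the flanks. In H3WT replicates 1 and 2 it held 12.4 and 15.7 kb. That member was the one of the 10 widest gene-end members with K27M peaks of both replicates within 10 kb.

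Germline, imprinted and odorant receptor genes completed the lists. Sycp1, which encodes a protein of the synaptonemal complex of meiosis, had a 4.10 kb member at one end and 3 more members inside the gene. Dio3, an imprinted gene whose enzyme inactivates thyroid hormone, had a 3.83 kb member (chr12:110277095-110280920). This member with its 10 kb flanks held no K27M peak, against 3.83 and 6.83 kb in H3WT replicates 1 and 2. The microRNA hairpin Mir1247 lies in the same member. The widest gene-end member, 8.94 kb (chr1:92597469-92606409), reached only an end of Olfr1411, which lies at chr1:92596521-92597492. This member with its 10 kb flanks held 0 and 1.42 kb in K27M replicates 1 and 2. In H3WT replicates 1 and 2 it held 13.8 and 20.2 kb. Of noncoding genes, 21 long noncoding RNA genes had an end at a member.

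The Ring1b and Suz12 lists were not used in the selection, and neither factor had a called peak at a member in K27M cells. Members were selected for H3K27me3 peaks in H3WT and for none in K27M. Ring1b and Suz12 counts by genotype are therefore not free of the selection. The K27M Ring1b library had a peak at 0 of 294 members, while 11.5% of all peaks of the width class had one. Of the peaks overlapping K27M replicate 2 only, 1.94% had one. The H3WT Ring1b library had a peak at 13 members (4.42%, exact 95% interval 2.38 to 7.44), with 10.8% over the width class. Of the kept peaks, 286 (28.9%) had a K27M Ring1b peak and 221 (22.4%) an H3WT Ring1b peak. The members' H3WT share was near that of peaks overlapping K27M replicate 2 only, of which 42 had an H3WT Ring1b peak alone and 17 had one in both genotypes among 1443. Among peaks of 3 to 4 kb it was also near the background: 7 of 175 members (4%) and 4.73% of all peaks of that width had an H3WT Ring1b peak, while no member and 5.15% of all such peaks had a K27M one. The whole Ring1b list held 1808 peaks in K27M and 1754 in H3WT. With 1 Ring1b library per genotype there is no replicate check, and none of these differences was tested.

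Suz12 showed less at members. The K27M Suz12 library had a peak at none of them, while 12.4% of the width class had one, and the H3WT Suz12 library had a peak at 1 (0.34%), while 5.47% of the width class had one. Peaks overlapping K27M replicate 2 only were also low, with 2.01% in the K27M and 1.04% in the H3WT Suz12 library. Among peaks of 3 to 4 kb, where most members lie, no member had either, and the shares over all such peaks were 4.94% in the K27M and 0.42% in the H3WT library. The whole Suz12 list held 1252 peaks in K27M and 631 in H3WT. Shares in these lists therefore do not show a gain or loss of Suz12 between genotypes. Kept peaks had a Suz12 peak at 308 (31.2%) in the K27M library and 133 (13.5%) in the H3WT library. The single member was that of Hs3st4 (chr7:123980472-123985443, 4.97 kb), whose CpG-rich promoter is shown above, with 0 kb in the K27M and 1.32 kb in the H3WT Suz12 library. No Ring1b peak was called there in either genotype.

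**Figure D4:**
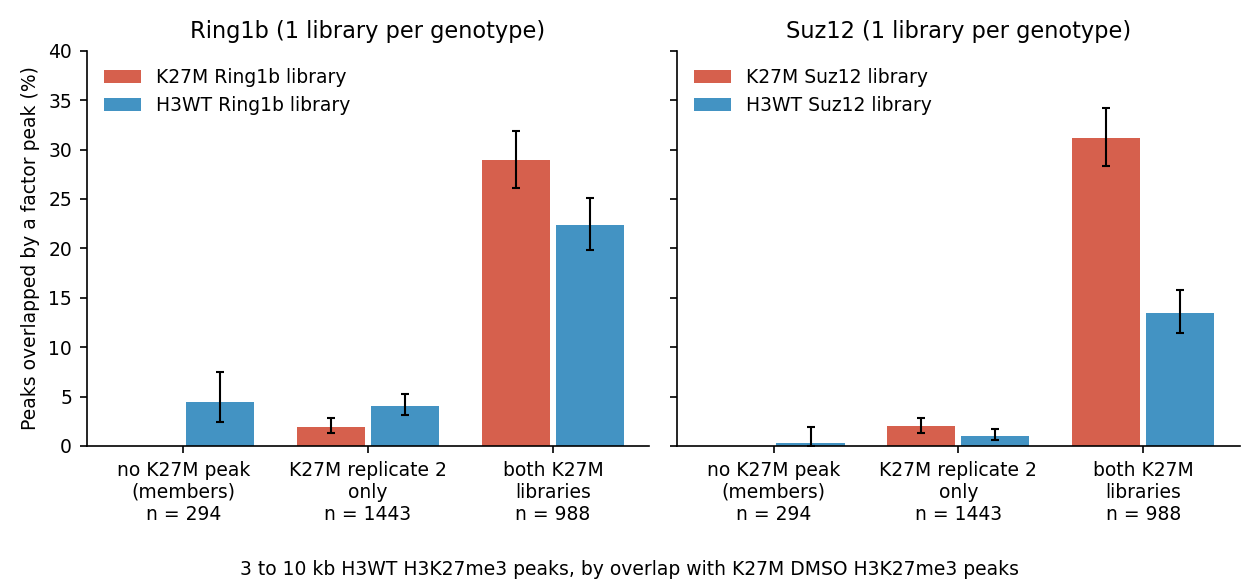
Share (%) of 3 to 10 kb H3WT H3K27me3 peaks overlapped by a Ring1b peak (left) or a Suz12 peak (right) of the K27M and the H3WT library, for members, for peaks overlapping K27M replicate 2 only and for kept peaks; error bars are exact 95% intervals over peaks, not drawn at 0, and cover no variation between libraries. Members have no K27M bar for either factor and an H3WT bar of 4.42% for Ring1b.

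The 13 members with H3WT Ring1b comprised 2 at a gene end, 6 inside a gene and 5 between genes. The longest overlap was 6.05 kb in the body of Sycp1 (chr3:102919407-102926770, a 7.36 kb member), with 0 kb of K27M Ring1b. Next came 5.04 kb in a 6.35 kb member 5.91 kb from Pcdh9, a protocadherin gene (chr14:93898744-93905094). The 2 members inside Pkhd1l1, which encodes a large membrane protein, held 2.44 and 1.77 kb. In 3 of these 4 members Ring1b peaks covered most of the member. The teneurin gene Tenm3 (1.99 kb), the syntaxin-binding gene Stxbp5l (1.92 kb), Ccdc73 (1.52 kb), Cr2 (1.39 kb) and the splicing factor gene Rbm11 (1.03 kb) also held Ring1b peaks, the lengths in brackets being the overlaps, and the 4 others lay between genes. With 10 kb flanks, K27M Ring1b peaks were found at 11 members (3.74%) and H3WT Ring1b peaks at 39 (13.3%): 2 members had a K27M peak only, 9 had both and 30 had an H3WT peak only.

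No EPZ library had a called peak at any member, and in K27M cells none was called there in DMSO either. At least 1 EPZ library overlapped 37 of the 2725 peaks of the width class (1.36%) and 29 of 988 kept peaks (2.94%). Peaks overlapping K27M replicate 2 only were overlapped less often, at 8 of 1443 (0.55%). So were all peaks of 3 to 4 kb, at 6 of 951 (0.63%). These 2 lower shares lie within the members' exact interval of 0% to 1.25%. The 0 therefore does not set members apart from such peaks. Each of the 2 K27M EPZ libraries and each of the 2 H3WT EPZ libraries overlapped 0 of 294 members. The difference between K27M and H3WT in overlapped members was therefore 0 (two-sided exact permutation test over the 4 libraries, p = 1). With equal counts in all 4 libraries this p is fixed and cannot tell the genotypes apart. With 2 libraries against 2 the smallest p that the test can give is 0.333. The EPZ lists were short, with 201 and 340 peaks in K27M and 278 and 271 peaks in H3WT. Within 10 kb of a member, the K27M EPZ libraries had a peak at 0 and 0 members and the H3WT EPZ libraries at 2 and 4. The difference of means was -3 members, and the exact permutation p of 0.333 is the smallest possible. Of the 1443 peaks overlapping K27M replicate 2 only, 8 and 19 had a K27M EPZ peak within 10 kb and 25 and 19 an H3WT one. Members were selected for lacking K27M peaks in DMSO, so that their K27M counts are not free of the selection. The 4 members with an H3WT EPZ peak within 10 kb, named after their values were seen, lay 2.63 kb from Ihh, which encodes Indian hedgehog, 9.67 kb from Msx2, a homeobox gene, and, as a pair, 72.8 and 89.6 kb from Psmd7. The Psmd7 pair spans 20.1 kb and had an H3WT EPZ peak within 10 kb in replicate 2 only. Its members are therefore not independent counts.

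Nearly as many members came in runs as alone. Joined where the gap was at most 500 kb, 141 members fell into 51 runs of 2 or more and 153 stood alone. The run with most members held 8 over 294.0 kb (chr16:37127913-37421911), of which 7 lay inside Stxbp5l, a gene for a syntaxin-binding protein, and 1 outside it. Over that run, K27M replicates 1 and 2 had 11.1 and 51.5 kb under H3K27me3 peaks, against 175.0 and 241.0 kb in H3WT replicates 1 and 2. Ring1b peaks covered 2.91 kb in the K27M library and 39.8 kb in the H3WT library, and none of the 4 EPZ libraries had a peak there. Both K27M libraries thus had peaks in part of the region: both at one end of Stxbp5l, and replicate 2 also inside the gene towards its other end.

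Of the other runs, 3 held 6 members each. One lay over and around Col6a3, a collagen VI gene (chr1:90671890-90861710), with 0 and 5.62 kb under peaks in K27M replicates 1 and 2, against 69.5 and 114.0 kb in H3WT replicates 1 and 2. Another reached across Trp73, of the p53 family, and Prdm16, a zinc finger regulator (chr4:154069809-154465938), with 5.81 and 10.1 kb in K27M, against 47.1 and 77.7 kb in H3WT. The third, the longest at 842.4 kb, took in Stk32b and the homeobox gene Msx1 on chromosome 5, with 16.1 and 32.8 kb in K27M, against 79.1 and 106.6 kb in H3WT. In all 3 runs, both H3WT libraries had more than either K27M library, which the selection of members fixes in part. Several genes held more than 1 member in their body without a gene end: 14 genes did, among them Stxbp5l with 7, Col6a3, Cpeb1 and Dcdc5 with 4 each, and Dlg2, a synaptic scaffold gene, with 3.

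Members were unevenly spread over chromosomes. Chromosome 1 held 39 members, 20.1% of its peaks of the width class, and chromosome 16 held 14, or 21.5%, of which the Stxbp5l run gave 8. The lowest shares were 5.94% on chromosome 10 and 6% on chromosome 13. The 5 widest of the members over 50 kb from a protein-coding gene measured between 5.35 and 7.96 kb. The first of them was 7.96 kb wide and lay 108 kb from Bmp7, a bone morphogenetic protein gene (chr2:172751672-172759631), with no K27M peak within 10 kb, against 7.96 and 9.93 kb in H3WT replicates 1 and 2. The second was 7.19 kb wide and lay 93.0 kb from Zic4, a zinc finger gene of the cerebellum (chr9:91482343-91489534), with no K27M peak, against 16.2 and 23.6 kb. The fourth was 6.14 kb wide and lay 76.0 kb from Bub3, a mitotic checkpoint gene. This member with its 10 kb flanks held 2.78 and 6.16 kb in K27M replicates 1 and 2. In H3WT replicates 1 and 2 it held 14.8 and 17.3 kb, the member included.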

How the data were processed

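H3K27me3, Suz12 and Ring1b had been mapped by ChIP-seq, and the 12 deposited lists hold peak positions only: the authors' chromosome, start and end for each peak, with a score of 0 in every line, so that no height, fold or p-value was used. Bowtie 1.1.2 and mm10 are named in the submitters' processing notes; peak caller, threshold, control and read depth are not given in the sources used here, and peaks were called per library. The narrowest peak was 1001 bp wide. Touching peaks of a library were merged (21 lines). Overlap meant at least 1 bp. Genes (21631 protein-coding) and promoters (21045) came from RefSeq tables of GRCm38.p6, and a gene end was a window of 1 kb to either side of a gene's start or end. Shares carry exact Clopper-Pearson 95% intervals (scipy 1.17.1) that cover the counting of peaks only. The members, the gene lists and the named regions' rule were chosen with earlier results of these data known, and nothing that the selection used is tested. Named regions were the 10 widest members with a gene end, up to 4 per gene list, those with the longest Ring1b or Suz12 overlap, the 3 widths on each side of each bound, the 3 runs with most members (a tie added 1) and the 5 widest far from genes. Two-sided exact permutation tests compared the 4 EPZ libraries. The replicate numbers of the EPZ libraries form only 2 pairs and were not taken to pair cultures. Overlap lengths and overlap classes were tested on simulated peaks with known answers, and the 95% intervals were not. Alternatives changed the width bounds, overlap, joining of peaks, gene window and left-out libraries.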

Additional observations from a re-analysis of the deposited data

How the results depend on the processing

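Of 100 alternative values, 82 stayed within the limits set for them and 18 moved. With widths of 2 to 10 kb there were 853 members and the H3WT Ring1b share was 2.11%, and with 4 to 10 kb there were 119 members. Leaving out 1 DMSO H3K27me3 library at a time gave between 294 and 7266 members. Over those settings the H3WT Ring1b share ranged from 0.399% to 4.42%, the K27M Ring1b share from 0% to 1.61%, the K27M Suz12 share from 0% to 1.67%, the H3WT Suz12 share from 0.041% to 0.92%, the share with an EPZ peak from 0% to 0.461% (8 of 1737, without K27M replicate 2), the share at a gene end from 10.7% to 25.1% and the median promoter CpG observed/expected ratio from 0.35 to 0.60. The highest number came without H3WT replicate 1, where peaks of the longer replicate 2 list were taken instead; without K27M replicate 2 it was 1737. A factor peak within 5 kb in place of overlap gave 1.70% for K27M Ring1b and 9.52% for H3WT Ring1b, factor peaks of at least 2 kb gave 1.36% for H3WT Ring1b and 0% for H3WT Suz12, and a gene window of 5 kb gave 28.6% at a gene end. Joining peaks of a library within 1 kb of each other gave 437 members, and 258 of the 294 lay in a joined peak that was still lost. The difference in members within 10 kb of an EPZ peak was -3, and with the replicate block, a setting added after the data were seen, it was also -3 (exact permutation p = 0.5, the smallest possible). For overlapped members the replicate block left the difference at 0 (exact permutation p = 1, fixed because all counts were 0). Over the 37 peaks of the width class with an EPZ peak, the differences between replicates correlated between genotypes across peaks (r = 0.57), and the 2 pairs were not taken as paired. For all moved values the cause was not tested.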
